A study of Caenorhabditis elegans with 2 samples.

Results

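The srh and sri genes are 2 large families of predicted chemoreceptors of Caenorhabditis elegans, and this account covers their promoters in a ChIP-seq experiment on the nuclear receptor NHR-23. Members were all protein-coding genes whose symbol starts with srh- or sri-, which gave 281 of 19973 protein-coding genes on the nuclear chromosomes, 220 srh and 61 sri. A member counted as bound when a summit of the authors' thresholded peak list fell in its promoter window, which ran from 1500 bp before to 500 bp after any annotated transcript start. The families were taken by name, and the bound members were chosen by the summits of that list, so their number and strength are a description with no test. The chromatin came from whole L3 larvae, males and females pooled, of strain OP43, which carries unc-119(ed3) III and wgIs43, an insertion targeting nhr-23. The immunoprecipitated protein was eGFP-tagged NHR-23. The 2 biological replicates form 1 group, a control named in the labels is not used here, and the promoter that drives the transgene is not given in the sources used here.

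Chemoreceptor genes of this kind encode G protein-coupled receptors, most of them with no known ligand. They belong to the Str superfamily together with srd, srj and str, and many of those studied are active in a few sensory neurons of the head. They often lie in tandem clusters of close relatives. NHR-23, a nuclear receptor of the ROR family, is known mainly for its role in the epidermis during molting. Chromatin of whole larvae mixes all cells, so binding in a few cells and no binding cannot be told apart.

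The 7 bound members were srh-2, srh-16, srh-17, srh-24, srh-76, srh-282 and sri-5. None of the 7 had another srh or sri gene whose 5' end lay within 20 kb of its own, and neither did 63 of 274 unbound members. For 5 of the 7 bound members a summit also lay in the window of a gene of another family, and the other 2 shared none. The DNA at 5 of these sites is printed here because the question is which genes could share it. All sequences are the plus strand of WBcel235 from RefSeq, and capitals mark the nuclear receptor core (AGGTCA or GGGTCA) and the repeat GAGAGA on either strand. The first sequence is the whole stretch between a pair of divergent starts, and the others are 151 bp centred on the summit. The sri-5 and srh-16 sites are described by their values.
icl-1 to srh-2, chrV:728005-728300: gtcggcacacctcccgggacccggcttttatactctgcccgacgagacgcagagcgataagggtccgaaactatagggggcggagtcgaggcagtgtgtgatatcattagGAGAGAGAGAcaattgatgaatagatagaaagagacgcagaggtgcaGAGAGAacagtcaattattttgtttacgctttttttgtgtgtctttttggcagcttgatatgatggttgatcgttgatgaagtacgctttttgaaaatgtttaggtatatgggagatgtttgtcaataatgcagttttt
srh-282 and sma-10, chrIV:274247-274397: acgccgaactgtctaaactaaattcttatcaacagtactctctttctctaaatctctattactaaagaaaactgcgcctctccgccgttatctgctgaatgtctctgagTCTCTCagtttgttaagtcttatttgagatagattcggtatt
srh-24, algn-13 and R10D12.13, chrV:13962148-13962298: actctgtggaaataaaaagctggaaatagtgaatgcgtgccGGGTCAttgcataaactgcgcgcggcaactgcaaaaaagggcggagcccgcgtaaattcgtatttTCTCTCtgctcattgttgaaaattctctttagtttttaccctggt
srh-17, chrV:14660767-14660917: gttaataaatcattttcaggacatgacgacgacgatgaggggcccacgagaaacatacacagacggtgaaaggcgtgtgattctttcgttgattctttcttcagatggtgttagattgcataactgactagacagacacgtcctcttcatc
srh-76, chrV:5832899-5833049: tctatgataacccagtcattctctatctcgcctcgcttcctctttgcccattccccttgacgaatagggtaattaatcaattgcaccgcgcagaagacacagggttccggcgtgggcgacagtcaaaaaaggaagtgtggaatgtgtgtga

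AGGTCA or GGGTCA, the core bound by many nuclear receptors, was searched on both strands within 150 bp of each summit and was found at 1 of the 8 summits, that of srh-24. There GGGTCA lay 32 bp from the summit. For comparison, 23.8% of all thresholded summits and 12.2% of flanking windows of the same 301 bp held one of these strings. GAGAGA lay within 150 bp of 5 of the 8 summits, against 45.1% of all thresholded summits and 15.8% of flanks. Between icl-1 and srh-2 it was found at 4 positions, 3 of them overlapping, 16 to 20 bp from the summit. Neither string was found within 150 bp of the summits of srh-16, srh-17 and sri-5. A match is a description of the letters and not a shown site.

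The share of members bound was low beside the background of the genome. Of 281 members 7 were bound (2.49%, exact 95% interval 1.01 to 5.07), while the background was 3883 bound of all protein-coding genes (19.4%). By family 6 of 220 srh genes were bound (2.73%, exact 95% interval 1.01 to 5.84), and 1 of 61 sri genes (1.64%, exact 95% interval 0.0415 to 8.80). The other chemoreceptor families together had 19 of 1021 bound (1.86%, exact 95% interval 1.12 to 2.89), an interval that overlaps that of the srh and sri genes. Within the Str superfamily the remaining families had 5 of 299 bound (1.67%), with 0 of 39 srj genes, which allows a share of up to 7.69%. The Srg superfamily had 6 of 309 bound (1.94%), the solo families 8 of 289 (2.77%), and the Sra superfamily 0 of 124, which allows up to 2.42%. No test set these families apart from each other, and intervals cover counting error only.

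**Figure D1:**
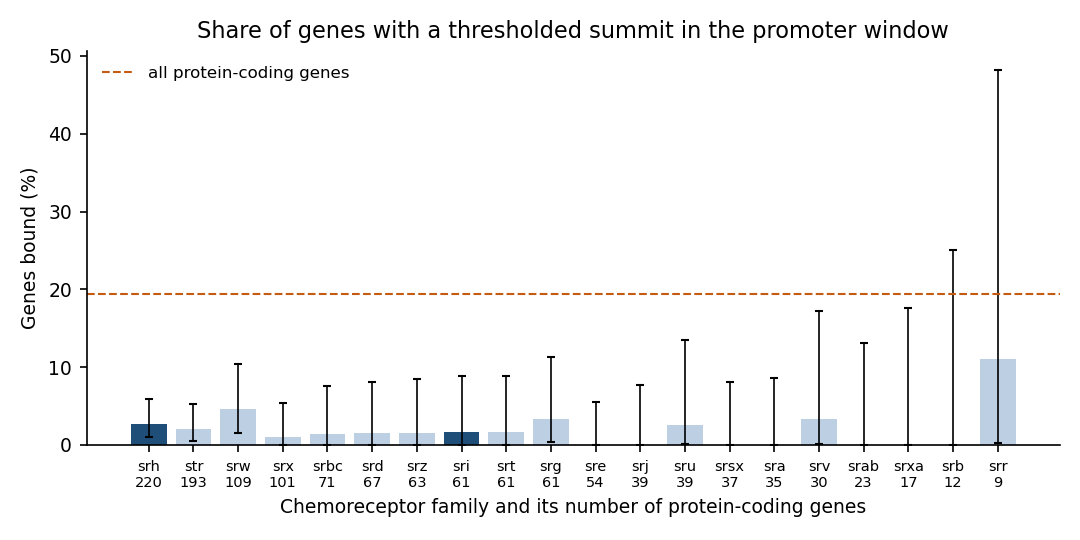
Percent of protein-coding genes of each chemoreceptor family with a thresholded summit in the promoter window (y axis), with the family size under each name. Error bars are exact 95% binomial intervals, or for families with 0 bound the share that 3 genes would make. The dashed line is the 19.4% of all protein-coding genes, and the srh and sri bars, in dark blue, stand at 2.73% and 1.64%.

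Among other families, the gene bound by the strongest peak was srr-10 at rank 1643 of the thresholded list in srr, str-176 at rank 1481 in str, srx-21 at 1894, srz-74 at 1976, srbc-59 at 2720, srt-11 at 2735, srv-7 at 2738, srg-64 at 3499, srw-145 at 3509, sru-35 at 4255 and srd-4 at 4921. Within the same list the peaks of srh-16 (rank 618), sri-5 (674), srh-76 (922), srh-2 (983 and 1438), srh-282 (1154) and srh-17 (1283) were stronger than any of these. That of srh-24 (3987) was not.

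Members lay far from thresholded summits as well as outside the window. The median distance from a member's start to the nearest thresholded summit was 32068 bp, against 8497 bp over all protein-coding genes. The nearest summit lay more than 10 kb away for 240 of 281 members (85.4%), against 45.9% of all protein-coding genes. The medians of the families were close, at 33378 bp for srh and 30957 bp for sri, and the farthest member was sri-70, at 337202 bp. Other chemoreceptors had a median of 21619 bp. The same list chose the bound members, so these distances describe the pattern and test nothing.

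**Figure D2:**
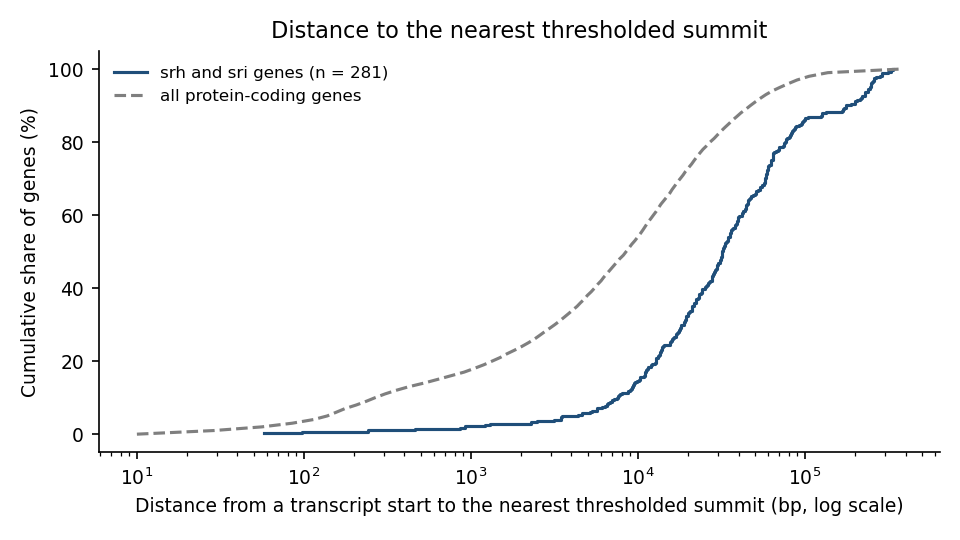
Cumulative percent of genes (y axis) by the distance from a transcript start to the nearest thresholded summit (x axis, bp, log scale, values under 10 bp drawn at 10). The line of the 281 srh and sri genes lies right of that of all protein-coding genes, with medians of 32068 and 8497 bp.

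Most members lay on chromosome V, which held 201 of 281 (71.5%), and chromosome II held 58 (20.6%). On V 5 of 201 members were bound (2.49%), against 664 of 4108 genes there outside the chemoreceptor families (16.2%). On II 0 of 58 were bound, which allows a share of up to 5.17%, against 19.6% of the genes outside these families. The remaining bound members were srh-282, 1 of 8 members on IV, where 18.5% of genes outside these families were bound, and sri-5, 1 of 11 on I, where 25.6% were. Chromosomes III and X held 1 and 2 members, with 0 bound.

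Position among other srh and sri genes was described next, with no test between bound and unbound members. Genes of other chemoreceptor families were not counted. This measure was chosen after the data were examined, and it uses the annotation alone. None of the 7 bound members had another srh or sri gene with its 5' end within 20 kb, whereas 63 of 274 unbound members had none. Within 50 kb 6 of 7 bound members and 41 of 274 unbound members had none. The exception was srh-2, with 1 other member within 50 kb and 4 within 100 kb. The nearest of these, sri-4, has its 5' end at 748344, just past 20 kb from that of srh-2 at 728301. From the 3' end of srh-2, at 734311, sri-4 lay less than 20 kb away. The internal summit of srh-2 lay 16838 bp from a start of sri-4, so the count at 20 kb depends on which start of srh-2 is taken. The number of other members within 50 kb had a median of 0 for bound members and 3 for unbound ones, with up to 14. Near the internal summit of srh-2, 2 genes of the Str superfamily, srj-25 and srj-24, start 4765 and 7364 bp away. Put the other way, 6 of 47 members with no other srh or sri gene within 50 kb were bound (12.8%, exact 95% interval 4.83 to 25.7). Of members with 1 to 2 such genes there 1 of 77 was bound, of those with 3 to 5 there 0 of 86 (up to 3.49%). Of those with 6 or more 0 of 71 were bound (up to 4.23%).

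The same count was made for genes outside the chemoreceptor families, with no test of the difference. With no srh or sri gene within 50 kb 3586 of 16546 were bound (21.7%), with 1 to 2 within 50 kb 192 of 1409 (13.6%), with 3 to 5 within 50 kb 71 of 533 (13.3%), and with 6 or more 8 of 183 (4.37%, exact 95% interval 1.91 to 8.43). Among the 261 genes outside these families that directly flank a member, 17 were bound (6.51%), 5 of them through a summit shared with the member. The background was 19.4%, and the part of chromosome position in these shares was not tested.

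**Figure D3:**
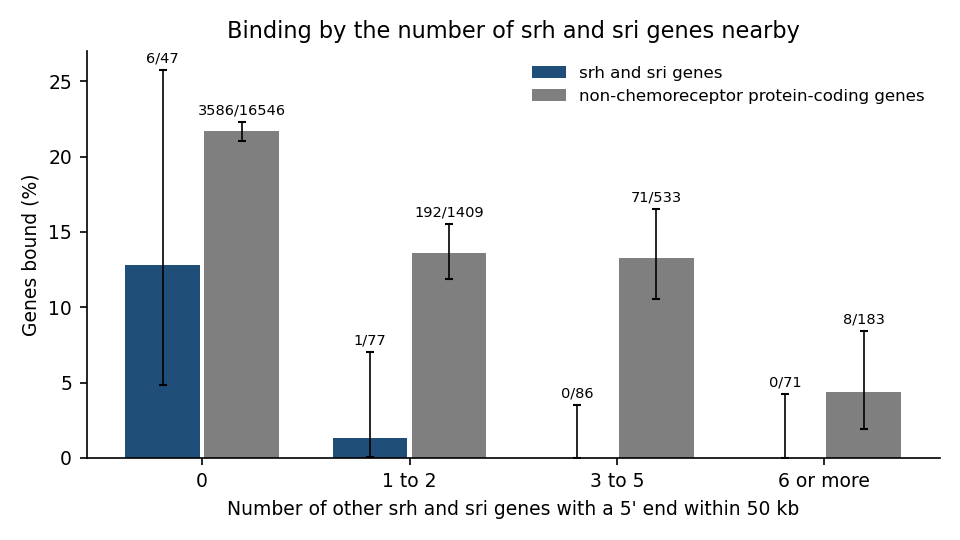
Percent of genes bound (y axis) by the number of other srh and sri genes with a 5' end within 50 kb (x axis), for srh and sri genes (blue) and for protein-coding genes outside the chemoreceptor families (grey). Error bars are exact 95% binomial intervals, or for 0 bound the share that 3 genes would make, and labels give bound and total. Bound members fall to 0 of 86 and 0 of 71 in the denser classes.

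The next gene upstream was classed by family. The upstream neighbour was a gene outside the chemoreceptor families for all 7 bound members and for 134 of 274 unbound members. Where that neighbour was itself an srh or sri gene, 0 of 104 members were bound (up to 2.88%), and where it belonged to another chemoreceptor family 0 of 36 (up to 8.33%). Members with a divergent neighbour of a family outside the chemoreceptors within 1500 bp were bound at 4 of 34 (11.8%, exact 95% interval 3.30 to 27.5). For genes outside the chemoreceptor families with a divergent neighbour of the same kind within 1500 bp the share was 1475 of 4102 (exact 95% interval 34.5% to 37.4%). Where the divergent neighbour of such a gene within 1500 bp was an srh or sri gene, 4 of 34 were bound (11.8%). The median gap upstream was 731 bp for bound and 1149 bp for unbound members, with ranges that overlapped (202 to 3129 bp and 59 to 14572 bp).

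The question of shared promoters was then asked of each bound member. The 7 members held 8 summits, since srh-2 had 2. A gene of another family had the same summit in its window at 5 of the 8, which involved 5 members and 6 such genes. In 3 members the other gene's start lay nearer to the summit, and in the other two the member's own start did. For comparison, 2075 of 3857 bound genes outside the chemoreceptor families (53.8%) shared a summit with another protein-coding gene, and so did 9 of the 19 other bound chemoreceptors with a gene outside these families. The 5 of 7 here is not set apart from that by any test.

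The summit nearest to a member's start was that of srh-16 (V, 12291861 to 12294196, plus strand). It lay at 12291803, 58 bp upstream, in a peak from 12291706 to 12291876. The deposited signal value of this peak was 126.5 (rank 618 of 4944), and it was 75.6 in replicate 1 (rank 351) and 47.6 in replicate 2 (rank 1508). It had the highest signal of the 8 summits in the thresholded list and in replicate 1, but in replicate 2 only that of srh-24 was lower.

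The gene sri-5 (I, 11182795 to 11186206, plus strand), the bound member of its family, is divergent from rsr-1, an SR-related gene of RNA splicing, with 731 bp between the outermost starts. Its summit at 11182552 lay 243 bp upstream of sri-5 and 489 bp upstream of rsr-1. The signal was 121.5 (rank 674), with 49.6 in replicate 1 (rank 887) and 71.0 in replicate 2 (rank 669). The chemoreceptor start was the nearer one here.

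At srh-2 (V, 728301 to 734311, plus strand) the upstream summit, at 728102, lay 199 bp from its first start and 98 bp upstream of icl-1, which encodes the bifunctional enzyme of the glyoxylate cycle. The starts are 296 bp apart, and the annotation also places a noncoding RNA gene across the first start of srh-2. This peak had a signal of 83.6 (rank 1438), with 29.9 in replicate 1 (rank 2354) and 55.8 in replicate 2 (rank 1113). The other summit, at 731506, lay inside the annotated gene, 97 bp downstream of an internal start, and the nearest start of another family's gene, icl-1, was 3502 bp away. Its signal was 101.7 (rank 983), with 37.4 in replicate 1 (rank 1592) and 66.2 in replicate 2 (rank 773). The gene has 7 annotated starts, more than the single start of most members, and it stayed bound with its first start alone.

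The summit assigned to srh-282 (IV, 272280 to 273399, minus strand) lay at 274322, 923 bp upstream of it and 98 bp upstream of sma-10. The gene sma-10 encodes a transmembrane protein of the body-size pathway of the TGF-beta type, and it is transcribed away from srh-282 on the other strand. The signal was 94.7 (rank 1154), with 53.0 in replicate 1 (rank 770) and 48.1 in replicate 2 (rank 1480). The sma-10 start was far nearer to the summit than the chemoreceptor start.

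At srh-24 (V, 13958746 to 13961016, minus strand) the summit, at 13962223, lay 1207 bp upstream, beyond the gene algn-13, which lies between on the same strand. The gene algn-13 belongs to the pathway of N-linked glycosylation, and its start was 246 bp from the summit. On the other side R10D12.13 began 194 bp from it, on the opposite strand. The signal was 41.8 (rank 3987), with 15.6 in replicate 1 (rank 5893) and 25.1 in replicate 2 (rank 3927). This was the weakest of the 8 summits and the only one outside the 4944 strongest peaks of a replicate. It was also the bound member closest to the edge of the window and to the signal threshold, which was 34.2.

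The genes srh-17 and srh-76 had no partner within the window of 1500 bp upstream. For srh-17 (V, 14661305 to 14663154, plus strand) the summit lay 463 bp upstream, at 14660842, and the divergent neighbour slc-25A29, a mitochondrial carrier gene, began 2667 bp away from it. On the same strand as srh-17, C47E8.9 began nearer to the summit, at 2464 bp. A window of 3000 bp upstream would hold this summit for both of these genes. The signal was 89.4 (rank 1283), with 33.7 in replicate 1 (rank 1936) and 55.4 in replicate 2 (rank 1135). For srh-76 (V, 5833831 to 5835183, plus strand) the summit lay 857 bp upstream, at 5832974, with a signal of 105.5 (rank 922), 47.7 in replicate 1 (rank 958) and 59.2 in replicate 2 (rank 981). It lay 143 bp past the 3' end of let-418, a Mi-2 chromatin remodeller gene on the same strand, whose own start is 6141 bp away. These summits, with the internal one of srh-2, were the 3 of the 8 that fell in no other family's window.

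**Figure D4:**
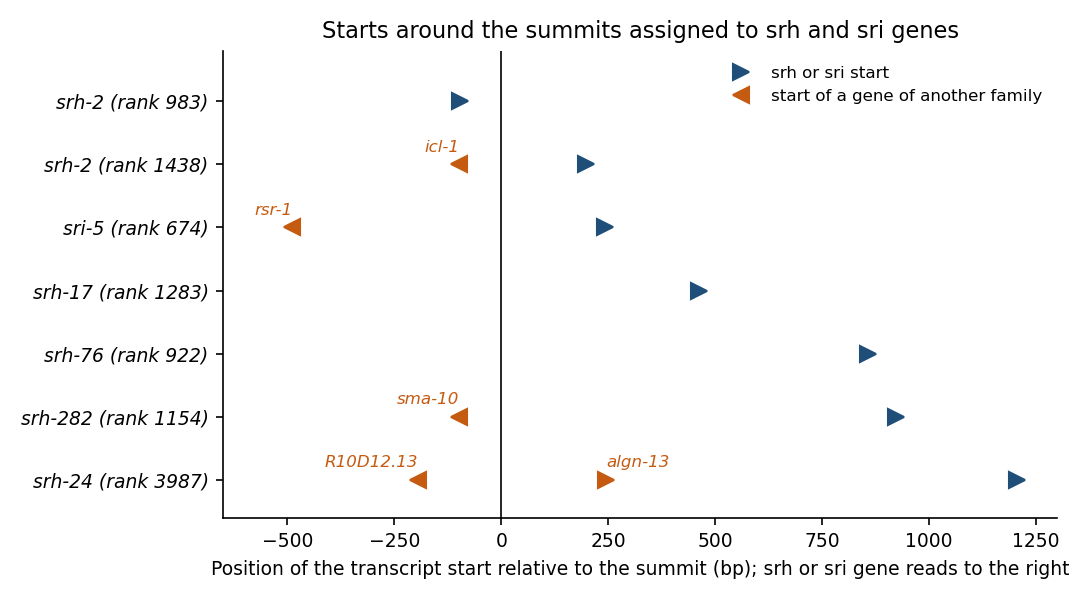
Position of transcript starts relative to 7 of the 8 summits, without that of srh-16 (x axis, bp, 0 is the summit), with 1 row per member and summit rank. Each row is turned so that the srh or sri gene (blue) reads to the right; orange triangles are starts of genes of other families and point in their direction of transcription. The starts of icl-1, sma-10, algn-13 and R10D12.13 lie nearer to the summit than the member's, that of rsr-1 farther.

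All 8 summits lay inside a peak of both replicates' full lists, and 7 of the 8 inside one of the 4944 strongest peaks of each, as did 3332 of all 4944 thresholded summits. The thresholded list is made from both replicates, so this is a description and no independent check. Ranks are comparable only within a list, and the lists hold no read counts, so the depth behind each value is unknown. Summits of the same site in the replicate lists lay from 0 to 38 bp from the thresholded one, apart from srh-17 in replicate 1, at 95 bp.

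**Figure D5:**
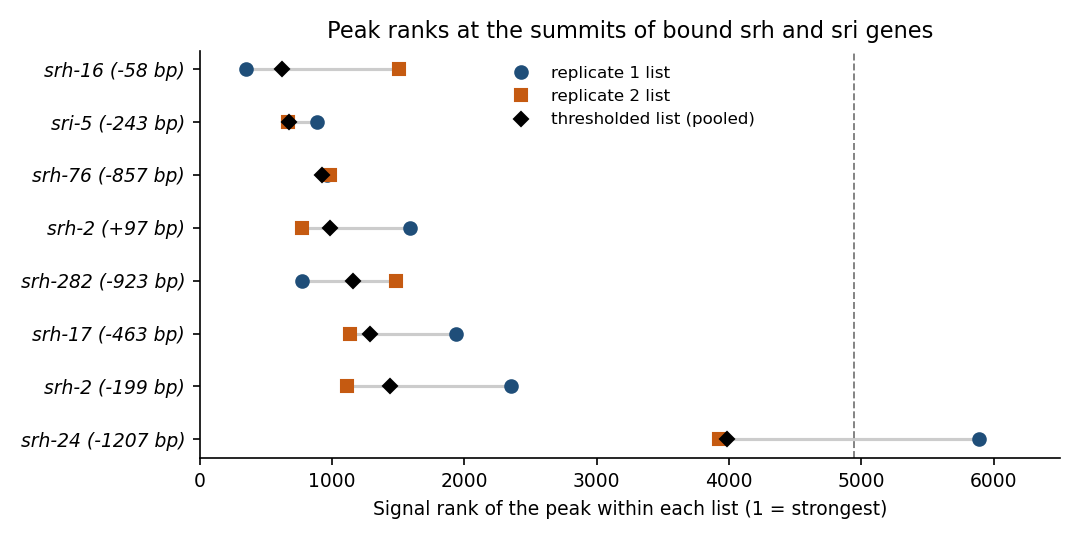
Rank of the peak's signal within its list (x axis, 1 is the strongest) for the 8 summits at bound members (y axis, with the summit's position from the start), in replicate 1 (circles), replicate 2 (squares) and the thresholded list (diamonds). The dashed line marks rank 4944, the length of the thresholded list. Replicate 1's rank of 5893 at srh-24 is the one point beyond it.

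When each replicate's own 4944 strongest peaks were used instead, 8 members were bound in each. From replicate 2 these were the same 7 members and srh-89 (background 19.3% of protein-coding genes). From replicate 1 they were 6 of the 7, without srh-24, and with srh-89 and srh-269 (background 18.3%). The gene srh-89 (V, 7463453 to 7464796, minus strand) had its summit 947 bp upstream in replicate 1 (signal 33.6, rank 1940) and 922 bp upstream in replicate 2 (signal 42.2, rank 1892), yet the pooled list holds no peak there. Both summits were nearer to F25E5.1, the divergent gene, at 141 and 166 bp from its start. The gene srh-269, whose upstream neighbour cpl-1 encodes a cathepsin L protease, had a summit 286 bp upstream in replicate 1 (signal 20.7, rank 4036) and one 288 bp upstream in the pooled list, at rank 5486, below the threshold (signal 31.1 against 34.2).

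The weaker peaks were examined next, since the rule did not use them. In the pooled list below the threshold 9 members had a summit in the window, against a background of 34.6% of protein-coding genes, and 6 of these were otherwise unbound. The strongest were at srh-2 (rank 5034), srh-269 (5486), srh-76 (10432), srh-74 (10881) and srh-282 (16534). Over the whole pooled list of 30000 peaks 13 of 281 members had a summit (4.63%, background 42.2%). Replicate 2's full list gave 13 (4.63%, background 41.8%) and replicate 1's 37 (13.2%, background 47.9%). Both replicate lists shared 10 of these members. In replicate 1's list 29 of the 37 were beyond its 4944 strongest peaks and 17 beyond rank 20000, which is a weak criterion.

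Near the edge of the window, no unbound member had a summit within 500 bp of it. The nearest were srh-271, with a summit 1302 bp downstream of its start and inside the gene, and srh-23 and srh-40, with summits 2288 and 2502 bp upstream. Some members with known expression were looked up after the values were seen. The gene sri-14, a receptor of ASH neurons for high levels of diacetyl, had its nearest summit 46817 bp away. For srh-234, active in ADL neurons, it lay 29692 bp away, and for srh-142, active in ADF neurons, 59243 bp away. None of these had a summit in the window in the pooled list or in a replicate list. However, 0% of the 30 bp sequences in the sri-14 window occur once in the genome, and 86.8% of those of srh-142. The effect of this on their peaks was not tested.

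Promoter windows were also scored for 30-mers that occur once in the genome. The median share of unique 30-mers was 97.8% for members and 99.9% for all protein-coding genes. The window was under 90% unique for 69 members, among them sri-14, with 0%. All 7 bound members were at 98.6% or above. Among the 212 members at 90% or above, 7 were bound (3.30%), where 21.4% of protein-coding genes at that level were bound. The part of repeated sequence in the low share was not tested.

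Genes that act with such receptors were listed as well. Of 22 genes of chemosensory signalling, G protein subunits, channels, kinases and receptor chaperones, 2 were bound (9.09%, exact 95% interval 1.12 to 29.2, background 19.4%). They were arr-1, the arrestin gene, with a summit 1162 bp upstream (rank 392), and egl-4, a cGMP-dependent protein kinase, with its strongest summit 619 bp upstream (rank 2505). Of 15 regulators of sensory neuron fate and cilia 1 was bound (6.67%, exact 95% interval 0.169 to 31.9). It was daf-19, the RFX factor of ciliated neurons, with a summit 259 bp downstream of a start (rank 3665). Both intervals include the background.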

How the data were processed

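ChIP-seq peaks of eGFP-tagged NHR-23 from L3 larvae were used, with 2 biological replicates in 1 group. Per the deposited text records, peaks were called on each replicate and on the pooled alignments against a control, and the authors derived the thresholded list from these by an irreproducible discovery rate procedure. No source used here names the aligner, the peak caller or a version. The signal value deposited for each peak is the caller's own, and was used only to rank and describe peaks within a list. The 4944 thresholded peaks were the 4944 strongest of the 30000 pooled peaks. No file gives reads, so the depth is unknown. Coordinates are ce11, 1-based, and genes are those of Ensembl release 115 on WBcel235, which has no srh or sri gene of another biotype. Only the ce11 lists were used. The identity of 1 gene that shares a summit is not reported here, and the counts of sharing include it.

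Summits were assigned to every start whose window held them. Shares have exact Clopper-Pearson 95% intervals, and a count of 0 allows a share of 3 counts of the total. No test was made between groups, since there is 1 group. Named genes were the bound members and the genes sharing their summits (apart from that 1 gene), the members nearest to the window edge and to the threshold, those bound with 1 replicate alone, the 5 with the strongest peaks below the threshold, bound genes of the chemosensory lists and the strongest gene of each other family. Members and lists were chosen with earlier results of these data known. The assignment was tested on simulated data. Python 3.11.15, numpy 2.4.6, pandas 2.3.3 and scipy 1.17.1 were used.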

Additional observations from a re-analysis of the deposited data

Results flagged for a closer look

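Both results here come from peaks outside the thresholded list. Of the members without a thresholded summit, 6 had a pooled summit below the threshold in the window, namely srh-74, srh-75, srh-206, srh-269, sri-29 and sri-60, and sri-29 shared it with B0454.8. The same held for 4550 of all 19973 protein-coding genes, so the 6 of 281 members are a smaller share than that of all genes. At srh-89 both replicates held a strong peak, with a best rank of 1892, in replicate 2, and the pooled list held none. Of 3548 peaks among replicate 1's strongest that overlapped one of replicate 2's strongest, 46 (1.30%) overlapped no pooled peak, so srh-89 was 1 of 46 such places. Why they are not in the pooled list was not tested.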

How the results depend on the processing

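Each replicate's own strongest peaks gave 8 bound members (7 srh) in place of 7, 5 to 6 of them sharing the summit and 3 to 4 with the other gene nearer, and 18.3% to 19.3% of all genes bound. The sri count was 1 throughout. With a window of 500 bp upstream, 4 members remained bound (3 srh), 3 shared the summit, and in 1 the other gene was nearer, with 13.8% of all genes bound. The members lost were srh-24, srh-76 and srh-282. With 3000 bp upstream 9 members were bound, 8 shared and 5 had the other gene nearer, with 24.8% of all genes bound. With each summit given to its nearest start within 3000 bp, 6 members were bound, with 17% of all genes bound. Sharing fell to 0 by construction. The 6 members were 5 of the 7, without srh-24 and srh-282, and srh-271, which had no thresholded summit in its window. The stronger part of the thresholded list bound 6 members and 11.4% of all genes. Leaving out the 71 members with a divergent upstream neighbour outside the chemoreceptors, 5 of them bound (7.04%), left 2 bound, srh-24 and srh-76. These 2 were among 70 members with a tandem neighbour of that kind (2.86%). For genes outside the chemoreceptor families the shares were 27.5% with such a divergent neighbour and 15.8% with such a tandem one. The share of all genes after the same exclusion was not computed. The exclusion also removed srh-17, which shares no summit, and kept srh-24, which does. The peaks strong in both replicates gave 6 members, with 14.4% of all genes bound. The window of 1000 bp gave 6 members and 16.4% of all genes. Whole peaks gave 7 members and 20.3%, and 1 start per gene gave 7 and 18.3%. The uniqueness filter, added after seeing the data, gave 7, with 21.4% of all genes that pass it bound. Depth is unknown, so a member without a peak is not shown to be unbound. No paired analysis was possible because there is 1 group.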
